A study of Mus musculus with 4 samples.

Results

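The transcription factor genes Egr1, Egr2 and Egr3, the orphan nuclear receptor genes Nr4a1, Nr4a2 and Nr4a3, and the corepressor genes Nab1 and Nab2 were followed in thymocytes of Cxxc1 KO and control mice. The 8 genes were chosen by name, as factors that T cell receptor (TCR) signalling induces and as the corepressors that act on them, and all 8 had a row among the 35976 gene symbols of the count tables. All 8 also passed the filter on low counts, which left 20389 genes. The material was bulk RNA-seq of CD4 and CD8a double-positive (DP) thymocytes, sorted from mouse thymus as CD24-positive and TCRb-negative. Cxxc1 KO cells came from Cxxc1 F/F :Lck-cre mice, in which Cre under the Lck promoter acts on floxed Cxxc1 in T-lineage cells, and control cells came from Cxxc1 +/+ :Lck-cre mice, so both genotypes carried the Cre transgene. There were 2 libraries per genotype, and the sources used here give neither the strain, the age nor the position of the floxed exons.

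EGR proteins are zinc finger transcription factors made within minutes of a signal through the Ras and ERK pathway, and in thymocytes they act at the pre-TCR checkpoint and in positive selection. NR4A proteins are nuclear receptors without a known physiological ligand. Nr4a1 (Nur77) is the gene behind a widely used reporter of TCR signal strength and takes part in the deletion of strongly signalled thymocytes. NAB1 and NAB2 bind EGR1, EGR2 and EGR3 and repress their activity, and Nab2 is itself induced by EGR proteins, which makes a feedback loop. Cxxc1 encodes the CpG-binding subunit of SETD1, a histone H3 lysine methyltransferase complex.

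Counts assigned to genes ranged from 33544428 to 36243182 in the KO libraries and from 12150508 to 34820446 in the control libraries. Levels are CPM, with the counts of each library scaled to one common total after TMM adjustment. A floor of 3 counts stood for 0.0843 to 0.0861 CPM in the KO and 0.0866 to 0.252 CPM in the control libraries, which covers counting error only. Cxxc1, the targeted gene, had 35.7 and 39.4 CPM in KO 1 and KO 2, against 111 and 53.5 CPM in control 1 and control 2. Its groups did not overlap, and the log2 fold change, -1.12 ± 0.34 (SE), missed the threshold (edgeR quasi-likelihood test, adjusted p = 0.199). The estimate depended on the control libraries: it was -0.51 without control replicate 1 (edgeR adjusted p = 0.566) and -1.56 without control replicate 2 (edgeR adjusted p = 0.00874). The DP genes Cd4, Cd8a and Rag1 had at least 142 CPM in every library. Cd4 had 142 and 277 CPM in the KO libraries, against 893 and 896 CPM in the control libraries. Cd8a had 258 and 478 CPM in the KO libraries, against 1258 and 1811 CPM in the control libraries. Whether each library stands for its own animal is not stated in the labels, so p-values cover only the variation seen among these 4 libraries, which could be technical.

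Of the 8 genes, Egr1 and Nr4a1 fell in the KO, none rose, and 6 did not pass the test. At the same threshold, 0.451% of all tested genes were called, 0.181% lower and 0.270% higher. In 6 of the 8 genes (Egr1, Egr2, Egr3, Nr4a1, Nr4a3 and Nab2) each KO library was lower than each control library, which was so for 24.0% of tested genes. In the other two, Nr4a2 and Nab1, both KO libraries lay above both control libraries, as in 22.8% of tested genes. The 6 genes that lay lower each had an unadjusted p below 0.05, against 6.91% of tested genes with such a p and a lower level and 6.97% with such a p and a higher level. The median log2 fold change of the 8 genes was -2.32, beside -0.04 for all tested genes. The 8 genes were chosen with earlier results of these data known, so these shares and medians do not test the set. In bulk RNA, fewer cells that express a gene and less RNA per cell cannot be told apart.

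**Figure D1:**
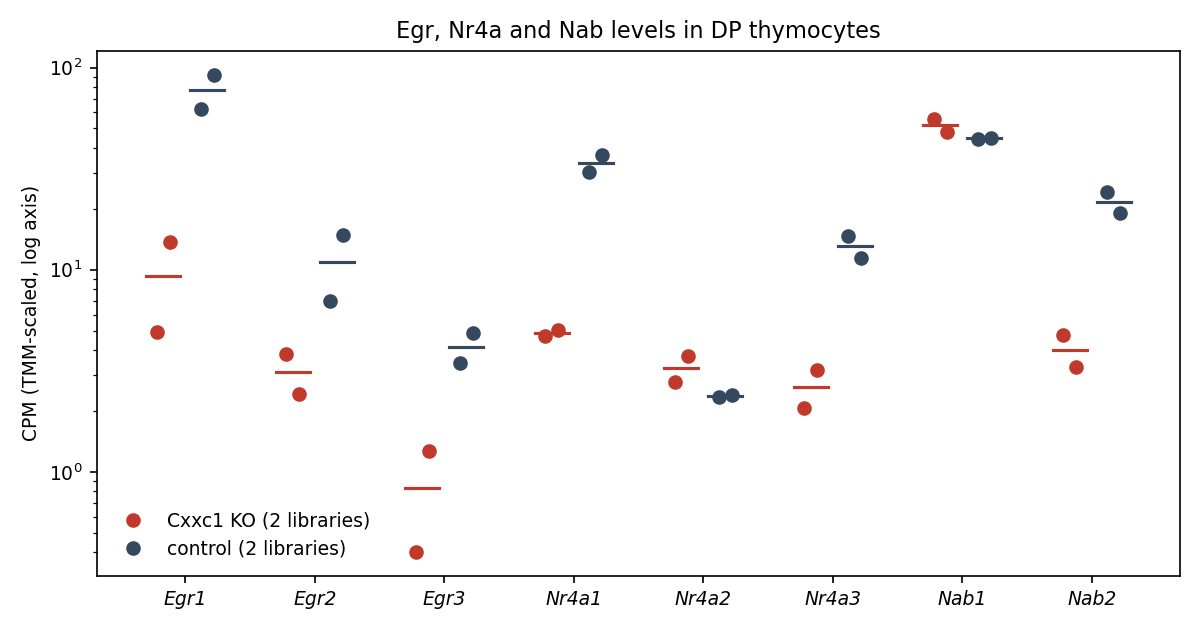
Level of each gene in CPM on a log axis, with 1 point per library and a bar at the mean of each genotype (KO left of control). The groups do not overlap in any of the 8 genes; Egr1 lies at 4.91 and 13.7 CPM in the KO libraries against 62.3 and 92.4 CPM in the control libraries.

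Among the EGR genes, Egr1 (chromosome 18, 34861207 to 34864956 on GRCm38), an immediate-early gene, had 4.91 and 13.7 CPM in KO 1 and KO 2, against 62.3 and 92.4 CPM in control 1 and control 2. The highest KO library was thus several-fold below the lowest control library, although the KO libraries also differed from each other. Egr1 averaged 9.28 ± 6.19 CPM in KO cells and 77.3 ± 21.3 CPM in control cells (SD, n = 2 each), a log2 fold change of -3.06 ± 0.47 with a 95% interval of -4.12 to -2.00 (edgeR adjusted p = 0.0355). The call ended without KO replicate 1, at -2.47 (edgeR adjusted p = 0.0858), and with library totals in place of TMM, at -2.9975 (edgeR adjusted p = 0.0505). Without KO replicate 2 the estimate was -3.98.

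Egr2 (chromosome 10, 67534469 to 67542188), which acts with Egr1 and Egr3 at the pre-TCR checkpoint and also in natural killer T cells, had 3.85 and 2.42 CPM in KO 1 and KO 2, against 6.98 and 14.9 CPM in control 1 and control 2. The groups did not overlap, but the control libraries also lay far apart. The log2 fold change was -1.81 ± 0.56 (95% interval -3.08 to -0.54, edgeR adjusted p = 0.211). It was -2.25 without control replicate 1 (edgeR adjusted p = 0.0188) and -1.16 without control replicate 2 (edgeR adjusted p = 0.414), and it passed the threshold in 2 of 11 alternative settings. Egr3 (chromosome 14, 70077317 to 70082613), which overlaps with Egr2 in function, was the scarcest member in the KO, with 14 and 45 reads in KO 1 and KO 2, against 41 and 169 reads in control 1 and control 2. Scaled, that was 0.402 and 1.26 CPM in the KO libraries, against 3.45 and 4.88 CPM in the control libraries. The log2 fold change of Egr3 was -2.32 ± 0.92 (95% interval -4.40 to -0.24, edgeR adjusted p = 0.312).

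The family's other gene, Egr4, is not among the 8 but stood in the list of immediate-early genes described below. It had 0 reads in both KO libraries, against 14 and 16 reads in control 1 and control 2. Against the floor of 3 reads in a KO library, its mean of 0.819 CPM in control cells puts the KO level at least 9.52-fold below that mean. This bound takes the control mean as exact, although control 1 and control 2 had 1.18 and 0.462 CPM. The test of Egr4 did not pass the threshold (edgeR adjusted p = 0.274).

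**Figure D2:**
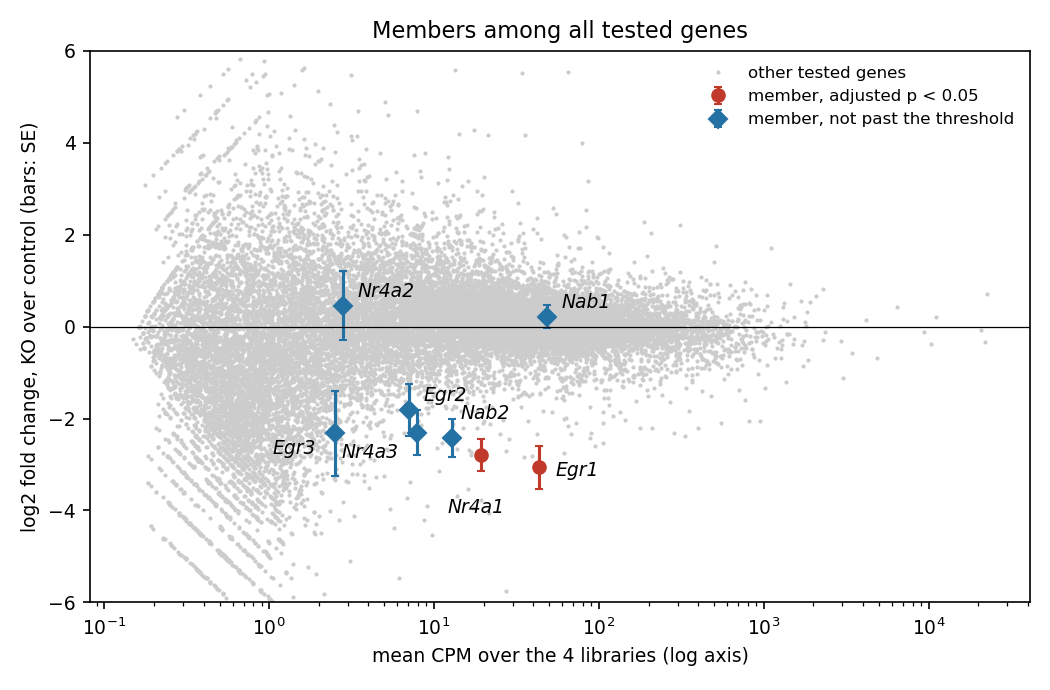
Log2 fold change (KO over control) against mean CPM over the 4 libraries on a log axis, for all tested genes (grey, with 507 genes beyond a log2 fold change of 6 either way not drawn) and for the 8 genes with SE bars. Egr1 at -3.06 and Nr4a1 at -2.79 passed the threshold, while Nr4a2 at 0.46 and Nab1 at 0.22 lay close to the centre of the cloud.

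Among the NR4A genes, Nr4a1 and Nr4a3 lay lower in the KO and Nr4a2 did not. Nr4a1 (chromosome 15, 101253902 to 101274795) had 4.71 and 5.03 CPM in KO 1 and KO 2, against 30.5 and 37.0 CPM in control 1 and control 2. Replicates of Nr4a1 were close together in both genotypes, and the groups were far apart. It averaged 4.87 ± 0.228 CPM in KO cells and 33.8 ± 4.61 CPM in control cells (SD, n = 2 each), a log2 fold change of -2.79 ± 0.35 (95% interval -3.58 to -2.01, edgeR adjusted p = 0.0177). The call held in 10 of 11 alternative settings and ended without KO replicate 1, at -2.71 (edgeR adjusted p = 0.116).

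Nr4a3 (Nor1, chromosome 4, 48045078 to 48086447), which shares roles in thymocyte deletion with Nr4a1, had 2.07 and 3.17 CPM in KO 1 and KO 2, against 14.6 and 11.5 CPM in control 1 and control 2. The groups were separated by several-fold. The log2 fold change was -2.31 ± 0.49 (95% interval -3.42 to -1.21), which did not pass the threshold (edgeR adjusted p = 0.0882) but did in 5 of 11 alternative settings. Nr4a2 (Nurr1, chromosome 2, 57106830 to 57124003), best known for its need in dopamine neurons, had 2.78 and 3.74 CPM in KO 1 and KO 2, against 2.35 and 2.39 CPM in control 1 and control 2. These are 97 and 133 reads in the KO libraries and 28 and 83 reads in the control libraries. The log2 fold change was 0.46 ± 0.75, and its 95% interval of -1.22 to 2.14 spans changes in either direction (edgeR adjusted p = 0.865).

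A ratio of reads within a library does not depend on how libraries are scaled. Nr4a1 had 1.69 and 1.35 reads per Nr4a2 read in KO 1 and KO 2, against 12.96 and 15.47 in control 1 and control 2. Nr4a3 had 0.742 and 0.850 reads per Nr4a2 read in the KO libraries, against 6.21 and 4.79 in the control libraries. Neither ratio overlapped between genotypes, whereas that of Nr4a1 to Nr4a3 did, at 2.28 and 1.58 in the KO libraries against 2.09 and 3.23 in the control libraries. With 2 libraries per genotype a two-sided exact permutation test cannot go below p = 0.333, and the first pair of ratios reached that value (p = 0.4 adjusted over the 6 ratios compared).

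The 250 bases before the RefSeq start sites of Nr4a1 (chr15:101266596-101266845, plus strand) and Nr4a2 (chr2:57124004-57124253, minus strand) on GRCm38.p6 are shown because these paralogs had estimates of opposite sign. Capitals mark the half-site TGACG of the cAMP response element and the EGR sites GCGGGGGCG and GCGTGGGCG, on either strand.
Nr4a1: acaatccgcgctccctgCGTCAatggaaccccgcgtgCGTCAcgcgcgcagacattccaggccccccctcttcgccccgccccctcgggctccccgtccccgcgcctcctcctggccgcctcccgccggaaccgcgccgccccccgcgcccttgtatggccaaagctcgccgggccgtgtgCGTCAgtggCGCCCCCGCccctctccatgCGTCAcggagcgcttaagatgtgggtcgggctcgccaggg
Nr4a2: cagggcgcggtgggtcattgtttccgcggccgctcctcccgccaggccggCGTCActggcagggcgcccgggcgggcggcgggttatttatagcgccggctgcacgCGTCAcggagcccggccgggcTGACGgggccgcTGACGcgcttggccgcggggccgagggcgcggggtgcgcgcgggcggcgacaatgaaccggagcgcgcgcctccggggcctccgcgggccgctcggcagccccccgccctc
Nr4a1 and Nr4a2 hold 4 half-sites each, at -233, -213, -69 and -40 in Nr4a1 and at -200, -144, -123 and -111 in Nr4a2, counted from the start site to the leftmost base. The Nr4a1 window also holds an EGR site at -60, and the Nr4a2 window a MEF2 site at -167. Nr4a3, not printed, holds 4 half-sites as well. At least 1 half-site is present in 17.8% of all 32851 upstream windows of this length, an EGR site in 3.06% and a MEF2 site in 2.92%. CpG dinucleotides numbered 34 in Nr4a1, 44 in Nr4a2 and 18 in Nr4a3, beside a median of 6 over all windows. The half-site and the EGR sites contain CpG themselves, and the shares over all windows were not matched for CpG content, so they do not test enrichment. The NBRE motif AAAGGTCA, which NR4A monomers bind, was in none of the member windows and is in 1.34% of all windows. A match describes letters and not binding, and histone marks were not measured in these files.

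The corepressor genes had estimates of opposite sign. Nab2 (chromosome 10, 127660918 to 127666703) had 4.76 and 3.29 CPM in KO 1 and KO 2, against 24.3 and 19.0 CPM in control 1 and control 2. Its groups were well apart, and it averaged 4.03 ± 1.04 CPM in KO cells and 21.6 ± 3.76 CPM in control cells (SD, n = 2 each). The log2 fold change was -2.42 ± 0.42 (95% interval -3.36 to -1.48), just outside the threshold (edgeR adjusted p = 0.0509), and it passed in 8 of 11 alternative settings. Nab1 (chromosome 1, 52455849 to 52500712) had 55.6 and 48.0 CPM in KO 1 and KO 2, against 44.3 and 45.0 CPM in control 1 and control 2. Its groups lay close, with a log2 fold change of 0.22 ± 0.25 and a 95% interval of -0.35 to 0.78 (edgeR adjusted p = 0.78).

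Nab2 had 0.0856 and 0.0684 reads per Nab1 read in the KO libraries, against 0.548 and 0.422 in the control libraries (two-sided exact permutation p = 0.333, the smallest possible; 0.4 adjusted over the 6 ratios). In GENCODE M21, exons of Nab2 share 1050 of 2941 bases with the noncoding Gm16229, 151 with Nemp1 and 40 with Stat6, all on the opposite strand, and the sources used here do not say whether counting used strand. The 2 coding neighbours had log2 fold changes of -0.29 ± 0.25 for Nemp1, listed as Tmem194, and 0.11 ± 0.22 for Stat6 (edgeR adjusted p = 0.681 and 0.897). For Gm16229, which has the largest overlap, there is no value here, so its part in the Nab2 counts was not tested. No member other than Nab2 shares exon bases with another gene in that annotation.

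The same upstream stretch is shown for Nab2 (chr10:127666704-127666953, minus strand) and Nab1 (chr1:52500449-52500698, minus strand), since Nab2 is known as a gene that EGR proteins induce. Capitals mark the motifs as above.
Nab2: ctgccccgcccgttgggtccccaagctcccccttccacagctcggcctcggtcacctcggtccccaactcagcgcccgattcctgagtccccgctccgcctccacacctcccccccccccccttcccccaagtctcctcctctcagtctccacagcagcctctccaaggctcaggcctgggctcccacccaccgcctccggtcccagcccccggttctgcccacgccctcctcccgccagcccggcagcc
Nab1: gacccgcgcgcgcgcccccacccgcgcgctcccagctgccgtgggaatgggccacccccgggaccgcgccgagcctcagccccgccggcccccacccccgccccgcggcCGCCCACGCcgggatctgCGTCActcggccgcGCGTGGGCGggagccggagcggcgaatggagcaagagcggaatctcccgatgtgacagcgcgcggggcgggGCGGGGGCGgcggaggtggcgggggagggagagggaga
The Nab1 window holds 3 EGR sites, at -141, -109 and -38, a half-site at -123 and 40 CpG dinucleotides. The Nab2 window holds none of these motifs and 15 CpG dinucleotides, which says only that these letters are not in this stretch. The windows of the 5 listed Egr2 start sites, some of which overlap, hold 2 distinct CArG boxes, the element bound by serum response factor; such a box is in 1.47% of all windows. In all, windows of 6 of the 8 genes were examined, those of Egr1 and Egr3 not, and no motif match overlapped another.

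Levels were compared between genes per kilobase of exon, from the GENCODE M21 exon union. In control cells the order of mean CPM per kb was Egr1 at 17.2, Nab1 at 10.9, Nr4a1 at 9.63, Nab2 at 7.36, Egr2 at 3.22, Nr4a3 at 2.18, Egr3 at 0.944 and Nr4a2 at 0.585. Of neighbours in that order, Egr2 and Nr4a3 alone overlapped between libraries. In KO cells Nab1 came first at 12.6 CPM per kb, ahead of Egr1 at 2.07, Nr4a1 at 1.39, Nab2 at 1.37, Egr2 at 0.921, Nr4a2 at 0.803, Nr4a3 at 0.438 and Egr3 at 0.189. There, each neighbour from Egr1 to Nr4a2 overlapped the next, so that part of the order is not resolved.

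Summed over Egr1, Egr2 and Egr3, the level was 2.32 and 4.04 CPM per kb in KO 1 and KO 2, against 16.7 and 26.1 CPM per kb in control 1 and control 2. Egr1 made up 47.2% and 75.3% of that sum in KO 1 and KO 2, against 83.05% and 78.97% in control 1 and control 2, so both KO libraries had a smaller Egr1 share, with KO 2 close to the controls. Summed NR4A genes had 2.37 and 2.88 CPM per kb in the KO libraries, against 11.7 and 13.1 CPM per kb in the control libraries. Nr4a2 made up 28.9% and 31.9% of the NR4A sum in the KO libraries, against 4.95% and 4.52% in the control libraries. The NAB sum differed less, at 15.2 and 12.8 CPM per kb in the KO libraries against 19.1 and 17.4 CPM per kb in the control libraries. Nab2 made up 10.7% and 8.71% of it in the KO libraries, against 43.3% and 37.0% in the control libraries.

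**Figure D3:**
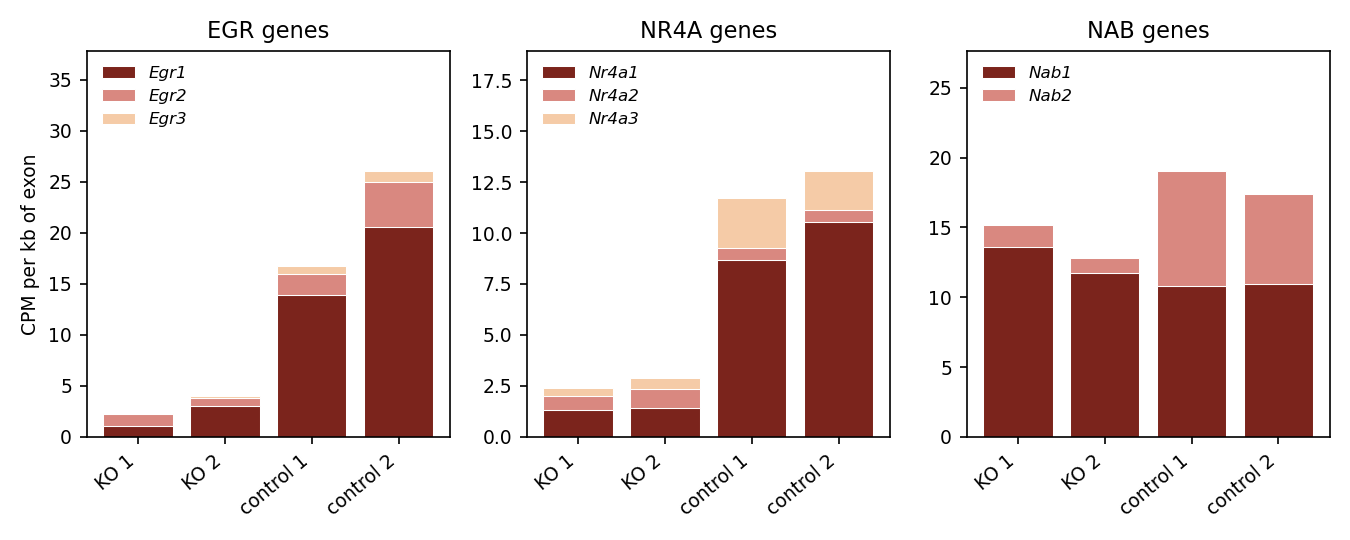
CPM per kb of exon in each library, stacked by gene, for the EGR, NR4A and NAB genes (KO libraries left of control libraries, each panel with its own axis from 0). The EGR and NR4A stacks are several-fold lower in both KO libraries, while in the NAB stack the Nab2 part is smaller and the Nab1 part is not.

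The members were set beside 5 lists of related genes. For the counts below, DESeq2 called 977 of the 20389 tested genes (4.79%), 526 lower and 451 higher, against 0.451% called by edgeR. Genes that act upstream on Egr and Nr4a promoters (serum response factor and its partners, CREB1, MEF2 factors and the proteins that restrain MEF2) had 0 of 13 tested genes called by edgeR, while DESeq2 called 1 higher; 1 was higher and 2 lower when p was left unadjusted at 0.05. Their median log2 fold change was -0.29, and 6 lay lower, 3 higher and 4 overlapped between genotypes. Hdac7, a class IIa deacetylase that represses Nr4a1 in thymocytes, had 610 and 634 CPM in KO 1 and KO 2, against 979 and 833 CPM in control 1 and control 2 (-0.54 ± 0.23, edgeR adjusted p = 0.337). Hdac4 and Hdac5, of the same class, were named after their values were seen. Hdac4 lay higher, at 133 and 97.3 CPM in the KO libraries against 62.3 and 50.2 CPM in the control libraries (1.03 ± 0.26, edgeR adjusted p = 0.124). Hdac5 lay lower (-0.68 ± 0.30, edgeR adjusted p = 0.36). Elk4, a ternary complex partner of serum response factor, had 301 and 370 CPM in the KO libraries, against 362 and 414 CPM in the control libraries, and its groups overlapped (-0.21 ± 0.23, edgeR adjusted p = 0.764).

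Partners of the EGR, NR4A and NAB proteins had 0 of 7 tested genes called by edgeR, while DESeq2 called 0; 2 were lower and 0 higher when p was left unadjusted at 0.05. Their median was -0.21, with 3 lower, 0 higher and 4 overlapping between genotypes. Chd4, the remodeller that NAB proteins recruit, had a log2 fold change of 0.10 ± 0.23, and the acetyltransferase gene Crebbp had -0.43 ± 0.22 (edgeR adjusted p = 0.916 and 0.437). Genes reported as EGR or NR4A targets in thymocytes or T cells were split, with 0 of 11 tested genes called by edgeR, whereas DESeq2 called 1 higher and 1 lower; 3 were higher and 2 lower when p was left unadjusted at 0.05. Their median was -0.13, with 4 lower, 4 higher and 3 overlapping between genotypes. The most abundant of them were Dgka, a diacylglycerol kinase gene, at -0.37 ± 0.30, and Ikzf2, the Helios gene, at 0.67 ± 0.27 (edgeR adjusted p = 0.652 and 0.313), of which Dgka changed sign without KO replicate 1, to 0.02. Id3, an inhibitor of E proteins induced through EGR1 and named here after its values were seen, had 10.2 and 10.2 CPM in KO 1 and KO 2, against 36.0 and 10.4 CPM in control 1 and control 2. Control 1 alone was well above the other libraries (-1.18 ± 0.53, edgeR adjusted p = 0.368).

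Other immediate-early and early signal-induced genes had 1 of 26 tested genes lower, 0 higher and 25 not past the threshold; DESeq2 called 5 lower and 1 higher. The median was -0.61, also with Egr4 at its bound, and 14 lay lower, 2 higher and 10 overlapped between genotypes. The gene that fell was Dusp4, a nuclear MAP kinase phosphatase, with 1.55 and 2.81 CPM in KO 1 and KO 2, against 24.4 and 14.2 CPM in control 1 and control 2 (-3.14 ± 0.51, edgeR adjusted p = 0.0442). Leaving out KO replicate 1 or KO replicate 2, or using library totals only, ended that call, at -2.74, -3.63 and -3.08 in that order. Named after their values were seen, Dusp6, the cytoplasmic ERK phosphatase gene, had 0.258 and 1.04 CPM in the KO libraries, against 7.23 and 13.01 CPM in the control libraries (-3.96 ± 0.79, edgeR adjusted p = 0.0769). Btg2, an early antiproliferative gene, was abundant in every library and overlapped, at 287 and 433 CPM in the KO libraries against 315 and 422 CPM in the control libraries (-0.03 ± 0.27, edgeR adjusted p = 0.976).

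Genes that rise with TCR signalling at positive selection had 1 of 12 tested genes lower, 0 higher and 11 not past the threshold, with a median of -0.93; DESeq2 called 5 lower. Of these 12, 9 lay lower, 1 higher and 2 overlapped between genotypes. The gene that fell was Cd5, a surface attenuator whose level tracks TCR signal strength, with 25.1 and 29.6 CPM in KO 1 and KO 2, against 106 and 129.9 CPM in control 1 and control 2 (-2.11 ± 0.25, edgeR adjusted p = 0.0152). That call ended without KO replicate 1, at -1.95 (edgeR adjusted p = 0.101). Gata3, the factor for the CD4 lineage, named after its values were seen, overlapped at 106 and 103 CPM in the KO libraries against 110 and 104 CPM in the control libraries.

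**Figure D4:**
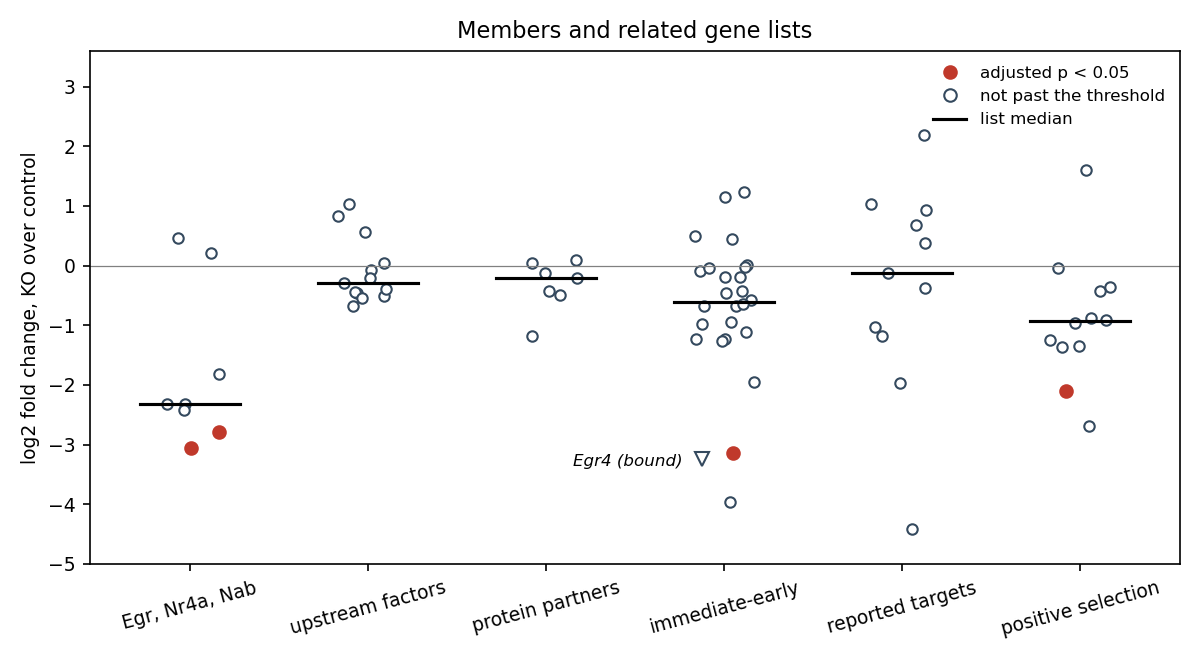
Log2 fold change (KO over control) of each tested gene, for the 8 Egr, Nr4a and Nab genes and 5 related lists; filled points passed the threshold and the bar is the list median. The medians are -2.32 for the 8 genes, -0.29 for upstream factors, -0.21 for partners, -0.61 for immediate-early genes, -0.13 for reported targets and -0.93 for positive selection genes; Egr4 is drawn at its bound of -3.25.

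Stage markers moved with genotype beside these genes, and their part in the results was not tested. Summed over 8 DP markers, the level was 4468 and 6975 CPM in KO 1 and KO 2, against 10284 and 13596 CPM in control 1 and control 2, and 3 of the 8 fell (Cd4, Cd8a and Dntt). Rag1 was the largest part of that sum, at 2997 and 4488.5 CPM in the KO libraries against 4967 and 7055 CPM in the control libraries. The 8 markers of double-negative and Notch-dependent thymocytes summed to 919.7 and 520.5 CPM in KO 1 and KO 2, against 180.8 and 142.9 CPM in control 1 and control 2, and 4 of the 8 rose (Il2ra, Il7r, Notch3 and Dtx1). Cd44, of the same list and named like Dtx1 after its values were seen, lay the other way, at 11.7 and 15.003 CPM in KO 1 and KO 2, against 30.3 and 35.2 CPM in control 1 and control 2 (-1.30 ± 0.32, edgeR adjusted p = 0.124). DESeq2, which called 4.79% of all tested genes, called 5 DP markers lower, and 6 double-negative markers higher and 1 lower. Without KO replicate 1, 0 of the DP markers passed the threshold and 1 of the double-negative markers did; with library totals in place of TMM, 1 of the DP markers and 4 of the double-negative markers did. No DP or double-negative marker was at 0 in both libraries of a genotype. KO 1 had the lower DP sum, the higher double-negative sum and the lower Egr1 level of the KO libraries. Egr3 and Nr4a3 were also lower in KO 1 than in KO 2, while Egr2 and Nab2 were higher. Nr4a1 was close to equal in KO 1 and KO 2.

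Markers of single-positive thymocytes summed to 151 and 125 CPM in KO 1 and KO 2, against 196 and 173 CPM in control 1 and control 2, with 0 of 5 tested genes called by edgeR; 1 was lower by DESeq2, and 1 when p was left unadjusted at 0.05. Foxo1, among the most abundant of them, had a log2 fold change of -0.92 ± 0.23 (edgeR adjusted p = 0.133). Erythroid markers summed to 37.9 and 25.5 CPM in KO 1 and KO 2, against 8.24 and 14.0 CPM in control 1 and control 2, with 1 of 5 called by edgeR and 3 higher by DESeq2. The gene called by edgeR was Hba-a1, with 507 and 231 reads in KO 1 and KO 2, against 0 in control 1 and control 2, a call that ended without KO replicate 1 and under edgeR's newer setting (adjusted p = 0.14 and 0.0582). The globin genes Hba-a2, Hbb-bs and Hbb-bt were also at 0 in both control libraries. Of 10 myeloid and dendritic markers, 5 B cell markers, 5 NK and innate markers and 5 stromal markers, none was called by edgeR; 2 were higher and 1 lower at an unadjusted p below 0.05, and DESeq2 called 1, a stromal marker, higher. The most abundant gene of each list, Itgam, Cd79b, Klrb1c and Epcam in that order, had log2 fold changes of 0.90 ± 0.37, 0.36 ± 0.51, -2.61 ± 1.01 and 2.11 ± 0.65 (edgeR adjusted p = 0.332, 0.836, 0.3 and 0.21). The sums were 38.8 and 53.7 CPM in the KO libraries against 30.5 and 36.3 CPM in the control libraries for myeloid and dendritic markers. Itgam gave 23.4 and 41.2 CPM of these in the KO libraries, against 14.2 and 20.3 CPM in the control libraries. Of the 7 tested myeloid and dendritic markers, 3 had a lower and 4 a higher estimate in the KO. B cell marker sums were 10.7 and 7.73 CPM in the KO libraries against 9.33 and 7.01 CPM in the control libraries. NK and innate marker sums were 2.12 and 2.19 CPM in the KO libraries against 10.9 and 5.14 CPM in the control libraries. Ncr1, of that list but not tested, had 51 reads (4.29 CPM) in control 1 and 0 in control 2. Stromal sums were 13.2 and 18.4 CPM in the KO libraries against 5.21 and 10.7 CPM in the control libraries. Epcam gave 11.6 and 15.1 CPM of these in the KO libraries, against 1.09 and 4.88 CPM in the control libraries. The other stromal markers, Krt5, Krt8, Col1a1 and Pdgfra, had lower means in the KO, and the median log2 fold change of the tested stromal markers was -1.29. S100a8 and S100a9, of the myeloid and dendritic list, were at 0 in both KO libraries and in control 2. They had 2 and 6 reads in control 1, in that order.

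For Egr1 and Nr4a1, the genes with the most similar pattern were sought among 8551 others of at least 10 mean CPM, by the root mean square distance of log2 CPM centred over the 4 libraries. Closest to Egr1 were Cd69, an early activation marker that TCR signalling induces (distance 0.19), Xkrx (0.22) and Map4k5, a MAP4 kinase gene (0.23). Cd69 had 2.27 and 6.49 CPM in KO 1 and KO 2, against 22.1 and 34.2 CPM in control 1 and control 2, so it shared with Egr1 the lower level in KO 1 and the higher level in control 2. Closest to Nr4a1 were F13a1, which encodes a subunit of coagulation factor XIII (0.11), Ncam1, an adhesion molecule gene (0.18), and Tnk2, a nonreceptor tyrosine kinase gene (0.26). F13a1 had 26.4 and 27.8 CPM in KO 1 and KO 2, against 158 and 169 CPM in control 1 and control 2. With 4 libraries such a distance is a description of these samples.

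**Figure D5:**
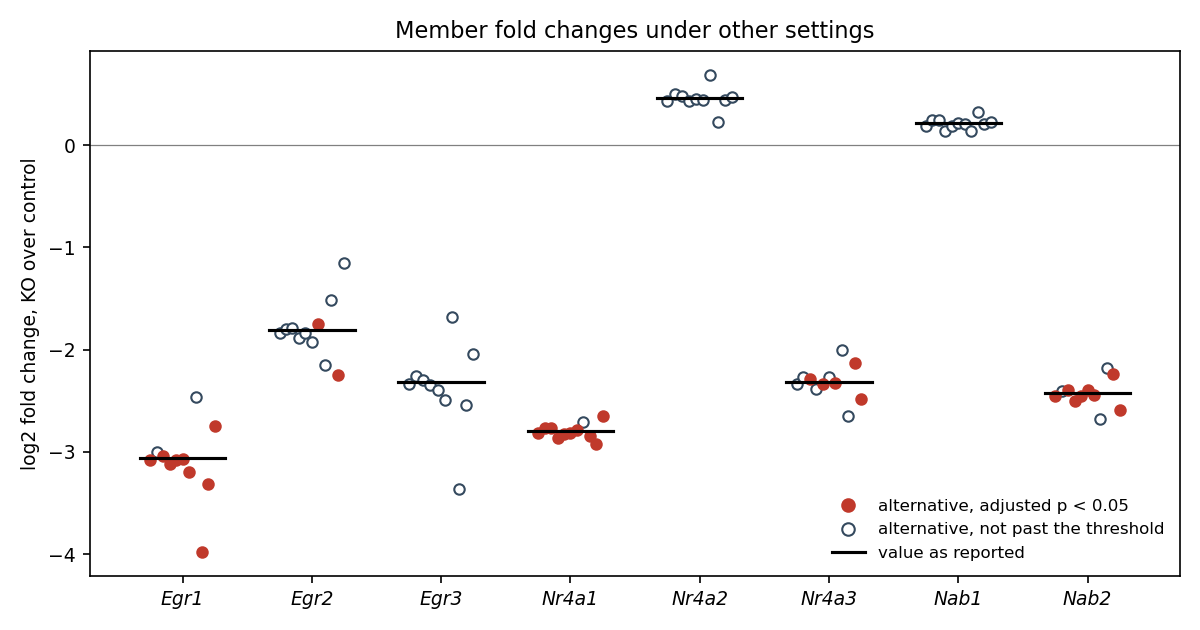
Log2 fold change (KO over control) of each gene under the alternative settings (points, filled where the adjusted p passed the threshold) beside the value as reported (bar). Nr4a1 stays between -2.93 and -2.65 and Egr1 between -3.98 and -2.47, while Egr3 passed the threshold in 0 of 10 settings.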

How the data were processed

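The authors deposited whole-number counts per gene symbol, not normalised, 1 table per library; per the file headers they come from a HISAT2 alignment. Per the labels' protocols, libraries were made with a SMART-seq Standard kit from 10 ng of TRIzol-extracted RNA with an integrity number above 8; such kits amplify by PCR, and reads are not molecules. Tools named without roles, per the submitters' processing notes, are edgeR 3.36.0, featureCounts 2.0.8, cutadapt 4.0 and HISAT2 2.2.1, with the build mm10. The annotation, the strand setting and how multiply matching reads were treated: not given in the sources used here.

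Groups and replicate numbers came from sample titles, and the labels give no batch. No pair of libraries agreed within sampling noise (chi-square over its degrees of freedom, 43.3 or more), so all 4 were used. Log2 CPM correlated at 0.944 between the KO libraries and at 0.89 between the control libraries. Across genotypes the correlations were 0.873 to 0.893, so the control libraries were no more alike than some KO and control pairs. In R 4.3.3, edgeR 4.0.16 kept 20389 genes (filterByExpr, minimum count 10, minimum total 15), scaled libraries by TMM and ran the quasi-likelihood test (legacy setting) with genotype as the only term; p-values are two-sided, adjusted over all tested genes by Benjamini and Hochberg's method, with a threshold of 0.05. SE is the absolute log2 fold change over the square root of F, and 95% intervals use the moderated degrees of freedom (median 9.19). Alternatives included DESeq2 1.42.0. The members and lists were chosen with earlier results of these data known. Named genes were the 8 members, Cxxc1, up to 3 called genes per list (where none was called the 2 most abundant, or 1 for lists of other cell types) and, for each called member, the 3 genes with the closest pattern, predicted genes left out; others are said to be named after their values were seen, and a gene that the rule names among the single-positive markers is not reported here. Symbols not found were matched through RefSeq synonyms; Mrtfa was left out because both Mkl1 and Mal had rows. Gene spans are RefSeq's on GRCm38.p6, and exon lengths are from GENCODE M21 on the same assembly. Upstream sequences are RefSeq's.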

Additional observations from a re-analysis of the deposited data

How the results depend on the processing

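The 2 members called as reported, of 92 genes called in all, became 4 of 920 with no filter on low counts, 4 of 977 with DESeq2 and 3 of 231 among genes of at least 5 CPM (Egr3 and Nr4a2 then untested). With library totals in place of TMM, 1 member was called, with 71 genes in all, and RLE scaling gave 3 of 93. Leaving out 1 library at a time gave 0 to 5 members called and 9 to 619 genes. The low ends came without KO replicate 1, where 8 of the 92 genes were still called; without control replicate 1 or control replicate 2 there were 5 members of 555 genes and 4 of 619. The lone library of a genotype is then assumed to vary like the other one, and the cause was not tested. The sign of each member's estimate was the same in all alternatives that tested it. Calls toward lower levels made up 40.2% as reported, 32.4% with library totals, 52.4% at 5 CPM, 53.8% with DESeq2, and 22.2% and 54.4% without KO replicate 1 and KO replicate 2.

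With replicate number as a block, 5 members and 1599 genes were called, with 1 residual degree of freedom. Deviations of same-numbered libraries did not correlate (r = -0.00956 over 20389 genes), and nothing in the labels pairs them, so the numbers are not read as pairs. Depth limits Egr3 and Nr4a2 most, with under 50 reads in the scarcest library.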
